A study of Mus musculus with 12 samples.

Results

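The mRNAs of 10 genes that drive cells into and out of mitosis were followed in NIH3T3 cells, an established line of mouse embryonic fibroblasts. They encode the cyclins Ccna2, Ccnb1 and Ccnb2, the kinases Cdk1, Plk1, Aurka, Aurkb and Melk, and Cdc20 and Ube2c, an activator and a ubiquitin-conjugating enzyme of the anaphase-promoting complex (APC/C). The rule that lists the genes uses their names and no measured value. Their probes were found by matching the RefSeq accession given for each probe to a mouse gene symbol, which gave 13 of the 41174 probes and 10 of the 32678 genes on the arrays (a probe with no symbol counts as 1 gene), and the probe brightest over the 12 arrays stands for each gene. All 10 genes were measured and well above background on 12 of 12 arrays, so none was lost to a filter.

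The cells, grown in serum, received DMSO (the solvent), 50 nM rapamycin or 2 µM PP242 for 18 h, and the design text calls the 4 samples of each treatment independent experiments. The treatment protocol gives 2 mM for PP242 in place of 2 µM. Rapamycin inhibits mTOR complex 1 allosterically, and PP242 competes with ATP in the mTOR kinase and so acts on both of its complexes. Each sample's RNA was hybridised to a one-colour Agilent array, and the arrays lay on 3 slides that each held all 3 groups. Total RNA came from whole cultures of 1 cell line at 1 time point, and each compound was used at a single dose.

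Mitotic cyclins bind and switch on Cdk1, and cyclin A2 also acts earlier, in S phase. Polo-like kinase 1 and the Aurora kinases build the spindle, help to activate Cdk1 and correct faulty attachments of chromosomes. At the metaphase to anaphase transition the APC/C, activated by Cdc20 and charged with ubiquitin by Ube2c, marks cyclins and securin for destruction. In dividing cells the mRNAs of most of these genes are low in G1 and highest in G2 and mitosis. Their promoters commonly hold CHR elements, where complexes built on the MuvB core (DREAM in resting cells, B-Myb and FoxM1 in dividing ones) bind, and CCAAT boxes, where NF-Y binds.

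The promoter windows in RefSeq (GRCm38.p6), 300 bases from 250 before to 50 after the annotated start, were searched on both strands for the CHR letters TTTGAA and TTCGAA and for CCAAT. Windows for 8 of the 10 genes were used, without Ccna2 and Aurkb. TTTGAA was present in 6 of these 8 and in 17.9% of all 32851 windows, TTCGAA in 0 of 8 and in 1.56% of all, and CCAAT in 7 of 8 and in 37.4% of all. Both a CHR match and a CCAAT match stood in 6 of 8, against 7.52% of all windows. A further feature was noticed only after the matches were listed. In 5 of the 8 windows a pair of CCAAT matches on the same strand began 31 to 33 bases apart, which held for 0.794% of all windows.

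Sequences are printed here for the 3 genes with both kinds of match in the 150 bases before the start (Cdc20, Cdk1, Ube2c). The B-type cyclins are also printed, as their neighbouring CCAAT matches lie 32 (Ccnb1) or 33 (Ccnb2) bases apart. The 150 bases before the start are given, with matches in capitals. They are written 5′ to 3′ on the gene's strand and end at the base before the annotated start, and ATTGG and TTCAAA are CCAAT and TTTGAA on the other strand.
Cdc20, chr4:118437344-118437493, minus strand: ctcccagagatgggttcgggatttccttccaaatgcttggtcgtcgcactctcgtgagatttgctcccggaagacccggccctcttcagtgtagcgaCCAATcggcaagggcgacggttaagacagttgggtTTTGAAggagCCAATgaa
Cdk1, chr10:69352913-69353062, minus strand: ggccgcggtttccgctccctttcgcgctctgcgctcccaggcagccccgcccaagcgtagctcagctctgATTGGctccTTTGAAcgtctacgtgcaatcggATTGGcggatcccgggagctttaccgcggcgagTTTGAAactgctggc
Ube2c, chr2:164769779-164769928, plus strand: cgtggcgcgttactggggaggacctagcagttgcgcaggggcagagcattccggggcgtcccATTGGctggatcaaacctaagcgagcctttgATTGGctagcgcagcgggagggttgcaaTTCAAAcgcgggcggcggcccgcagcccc
Ccnb2, chr9:70421555-70421704, minus strand: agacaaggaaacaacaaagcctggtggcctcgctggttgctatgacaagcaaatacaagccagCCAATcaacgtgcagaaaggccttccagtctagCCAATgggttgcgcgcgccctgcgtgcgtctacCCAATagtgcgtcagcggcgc
Ccnb1, chr13:100786487-100786636, minus strand: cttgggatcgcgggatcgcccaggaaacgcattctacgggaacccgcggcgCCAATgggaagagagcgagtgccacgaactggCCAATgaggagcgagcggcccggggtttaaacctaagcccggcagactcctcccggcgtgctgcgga

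In Cdc20 the CHR match began 18 bases before the start and lay between CCAAT matches at 53 and 8 bases before it. Cdk1 had CHR matches 71 and 15 bases before the start, and its CCAAT matches at 80 and 48 bases were 32 apart. Ube2c had its CHR match, on the other strand, 29 bases before the start, and CCAAT matches at 88 and 57 bases that were 31 apart. The 3 CCAAT matches of Ccnb2, at 87, 54 and 21 bases, lay 33 apart each, and its CHR matches fell outside the printed stretch, 167 bases before the start and at base 5 of the transcript. Ccnb1 had CCAAT matches at 99 and 67 bases, 32 apart, and no CHR match in the window. Plk1 and Aurka had CCAAT matches before the start, at 14 bases for Plk1 and at 51 and 19 for Aurka, and a CHR match after it, at bases 31 and 33. Melk had neither motif in its window. In Ube2c, farther upstream, CCAAT matches on opposite strands at 186 and 183 bases overlapped. A match describes the letters in the window and was not tested as a binding site.

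**Figure D1:**
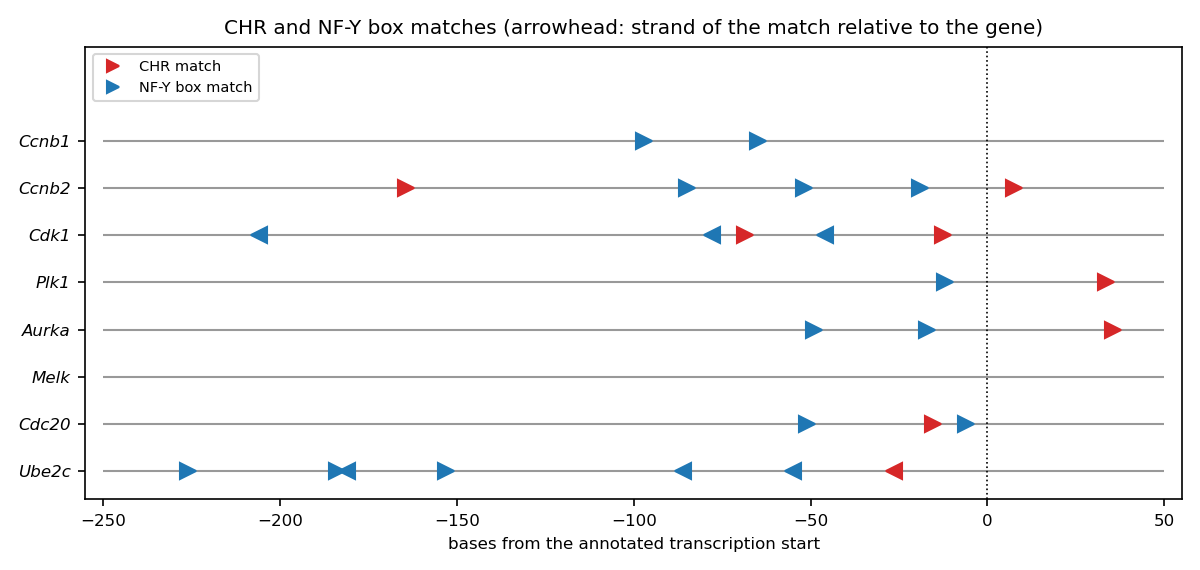
CHR matches (TTTGAA or TTCGAA, red) and NF-Y box matches (CCAAT, blue) along the 300-base promoter windows of 8 mitotic genes, with distance from the annotated start in bases on the horizontal axis and arrowheads giving the strand of the match relative to the gene. 6 of the 8 genes have both motifs, Ccnb1 has CCAAT matches only and Melk has neither.

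Levels are log2 of the processed signal minus the array's own 75th percentile, so 0 is that percentile and a difference of 1 is a doubling, and levels are compared only within a probe. On 8 arrays, called wide-range below, the ratio of the 75th to the 25th percentile of the signal was 261 to 420. In the remaining 4 (DMSO 2, rapamycin 3, PP242 1 and PP242 4) dim probes were raised and this ratio was 7.12 to 51.1. Probes well above background made up 78.0% to 97.9% of all there and 55.8% to 60.5% on the wide-range arrays. Each comparison is therefore given for all 12 arrays and for the 8 wide-range arrays (3 DMSO, 3 rapamycin, 2 PP242), and their number limits the precision. All 9 fibroblast markers, among them Col1a1, Vim and Thy1, were well above background on the 8 arrays. In contrast, 0 of 3 endothelial and 0 of 4 epithelial markers were so on all 8. The 3 endothelial markers and 3 of the 4 epithelial ones were well above background on none of the 8.

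PP242 was compared with DMSO to ask which mRNAs change with PP242. On the 8 wide-range arrays all 10 genes fell, by 3.18-fold for Ccnb2 to 5.48-fold for Aurkb, with limma adjusted p of 0.00042 to 0.0019 (n = 2 and 3). Over all 19669 genes tested on these arrays, 12.9% were called lower. The median log2 change of the 10 genes was -1.96, and that of all genes tested was -0.01. The 10 changes all lay within the lowest 1.95% of all genes. In a bulk culture, fewer cells in G2 and mitosis and less mRNA in each such cell cannot be told apart.

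Among the cyclins, Ccna2, which pairs with Cdk2 in S phase and with Cdk1 in G2, had levels of 4.63, 4.47, 4.58 and 4.69 on DMSO arrays 1 to 4. With PP242 they were 2.82, 2.76, 2.71 and 3.52, so the highest PP242 array lay below the lowest DMSO array, as for 13.8% of all genes. The log2 change was -1.90 ± 0.09 (SE) on the wide-range arrays, a 3.72-fold fall. Ccnb1, the main cyclin of mitotic entry, was at 2.34, 2.31, 2.29 and 2.38 with DMSO and at 0.45, 0.35, 0.44 and 1.44 with PP242. It fell by 1.94 ± 0.11 on the log2 scale (3.84-fold). Its 2 dimmer probes gave differences of -2.66 and -2.48, larger than the brightest probe and in the same direction. Ccnb2, a B-type cyclin found mostly at the Golgi, was at 3.15, 3.18, 3.08 and 3.18 with DMSO and at 1.55, 1.46, 1.47 and 2.31 with PP242. Its change of -1.67 ± 0.19 was the smallest of the 10.

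Cdk1, the kinase that these cyclins activate, stood at 3.96, 3.76, 3.86 and 3.69 with DMSO and at 2.04, 2.01, 1.96 and 2.64 with PP242. Its fall was 1.85 ± 0.12 on the log2 scale, or 3.61-fold. A second Cdk1 probe was not well above background on either wide-range PP242 array, so it gives no measured difference. Plk1, the polo-like kinase needed for mitotic entry and spindle poles, was at 4.83, 4.50, 4.78 and 4.60 with DMSO and at 2.67, 2.63, 2.53 and 3.66 with PP242, a change of -2.16 ± 0.16. For both kinases the groups did not overlap on the 12 arrays, which held in this direction for 13.8% of all genes. The PP242 array nearest to DMSO was PP242 4.

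With the brightest probe of each gene, both Aurora kinases fell further than the other 8 genes in point estimate. The dimmer Ccnb1 probes, at -2.66 and -2.48, fell further than either Aurora kinase. Aurka, which acts at centrosomes and activates Plk1, was at 4.68, 4.64, 4.61 and 4.32 with DMSO and at 2.26, 2.14, 2.16 and 3.20 with PP242. Its log2 change was -2.39 ± 0.15, 5.24-fold lower. Aurkb, the kinase of the chromosomal passenger complex, was at 1.69, 1.44, 1.86 and 1.72 with DMSO and at -0.25, -0.61, -0.79 and 0.42 with PP242, a change of -2.45 ± 0.15. The 95% interval for Aurkb (-2.80 to -2.10) and that for Ccnb2 (-2.12 to -1.22) overlapped slightly, and the differences among the 10 genes were not tested. Melk, a kinase abundant in dividing cells and known as a target of B-Myb and FoxM1, was at 2.59, 2.55, 2.57 and 2.63 with DMSO and at 1.01, 0.82, 0.89 and 2.13 with PP242. Its change was -1.74 ± 0.08, with the smallest SE of the 10, and its values on the 3 other PP242 arrays lay more than 1 log2 unit below that on PP242 4.

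The APC/C genes moved by similar amounts. Cdc20, which recruits substrates to the APC/C in mitosis, was at 5.91, 5.88, 5.86 and 5.82 with DMSO and at 3.98, 3.90, 3.82 and 4.74 with PP242. The 4 DMSO values thus lay within 0.1 log2 units of each other, and the change on the wide-range arrays was -2.00 ± 0.14 (4.01-fold). Ube2c, the E2 enzyme that starts ubiquitin chains on APC/C substrates, was at 4.81, 4.91, 4.83 and 4.81 with DMSO and at 2.90, 2.74, 2.93 and 3.84 with PP242, a change of -1.98 ± 0.14 (3.95-fold).

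**Figure D2:**
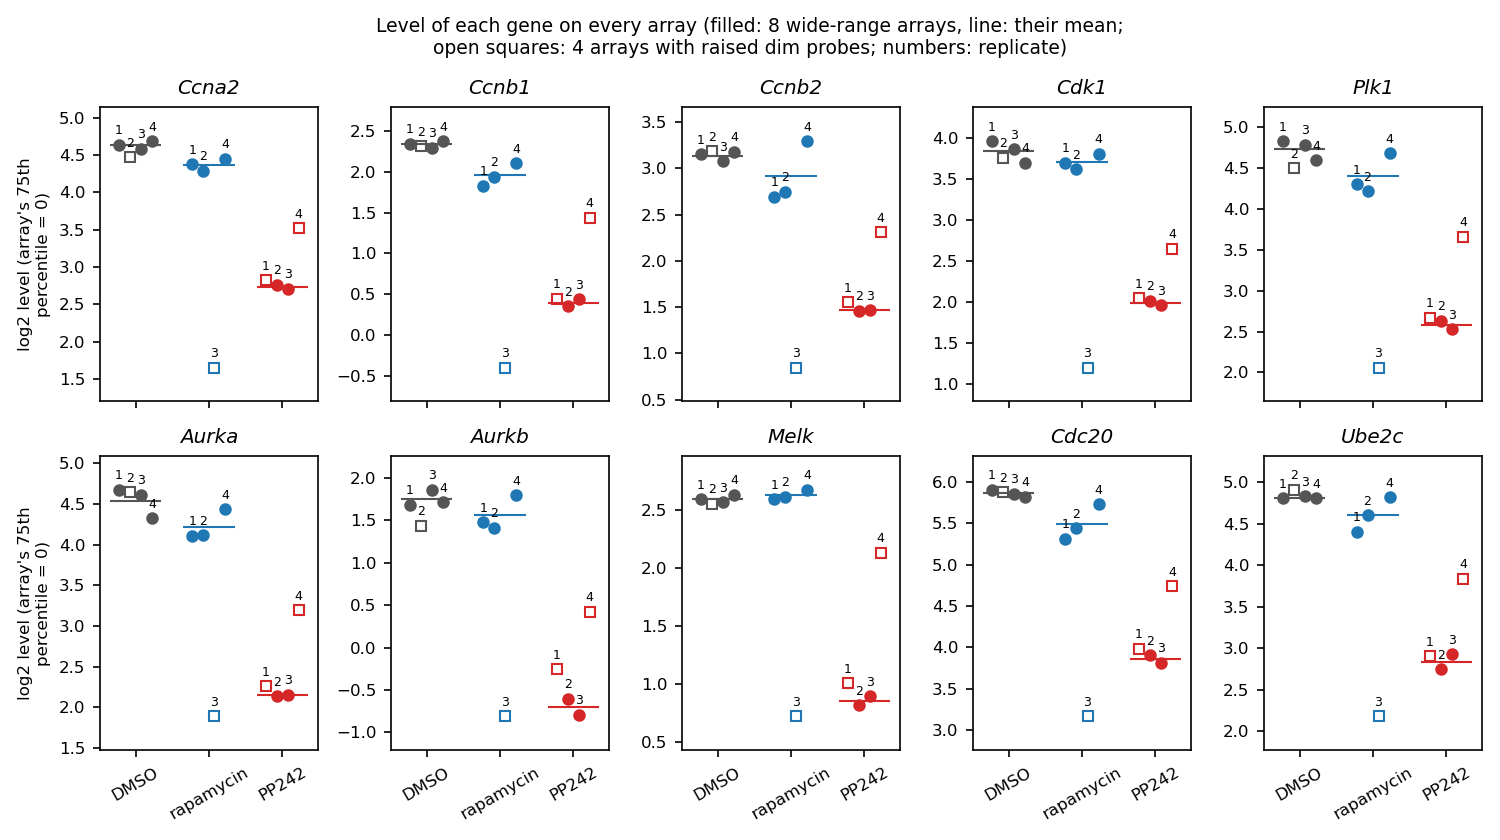
Level of each of the 10 genes on all 12 arrays (log2 processed signal minus the array's 75th percentile, vertical axes differ between panels), by treatment and replicate number; filled circles are the 8 wide-range arrays, lines their group means, and open squares the 4 arrays with raised dim probes. In each panel the 4 PP242 values lie below the 4 DMSO values, PP242 4 is the highest PP242 value, and rapamycin 3 lies below all other arrays.

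On all 12 arrays the 10 genes had log2 changes of -2.13 (Aurka) to -1.37 (Melk) and none passed (limma adjusted p = 0.133 to 0.318, n = 4 and 4), where 0.0586% of 25581 genes were called lower. Their unadjusted limma p-values were 0.002 to 0.0151, and for all 10 the PP242 and DMSO arrays did not overlap, which held in this direction for 13.8% of genes. The 10-gene median was -1.70 and the median of all genes tested was 0.38. A probe well above background only on the 4 arrays with raised dim probes (1 DMSO, 1 rapamycin, 2 PP242) could enter this fit. It tested 25581 genes, against 19669 on the wide-range arrays, so its all-gene median and shares include such dim genes. The 12-array fit shares 1 estimate of spread among the 3 groups, and rapamycin 3 lay far from the other rapamycin arrays. With the changes unaltered, all 10 genes passed in a fit of the 4 DMSO and 4 PP242 arrays alone (limma adjusted p = 0.00516 to 0.0311, 6.58% of all genes called lower). They also all passed in the fit without rapamycin 3 (limma adjusted p = 0.000504 to 0.0079, 9.35% called lower).

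Within each of the 3 slides the 10 genes were all lower with PP242 than with DMSO. The median differences were -1.98 on slide 1, whose arrays were all wide-range, -1.43 on slide 2, which held DMSO 2 and PP242 4, and -1.86 on slide 3, which held PP242 1. Each of these rests on 1 or 2 arrays a group. On PP242 4, where 96.2% of probes were well above background, the 10-gene median level was 2.92, against 2.06 to 2.15 on the other PP242 arrays and 4.01 to 4.30 with DMSO. The part that the raised dim probes play in the value of PP242 4 was not tested.

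**Figure D3:**
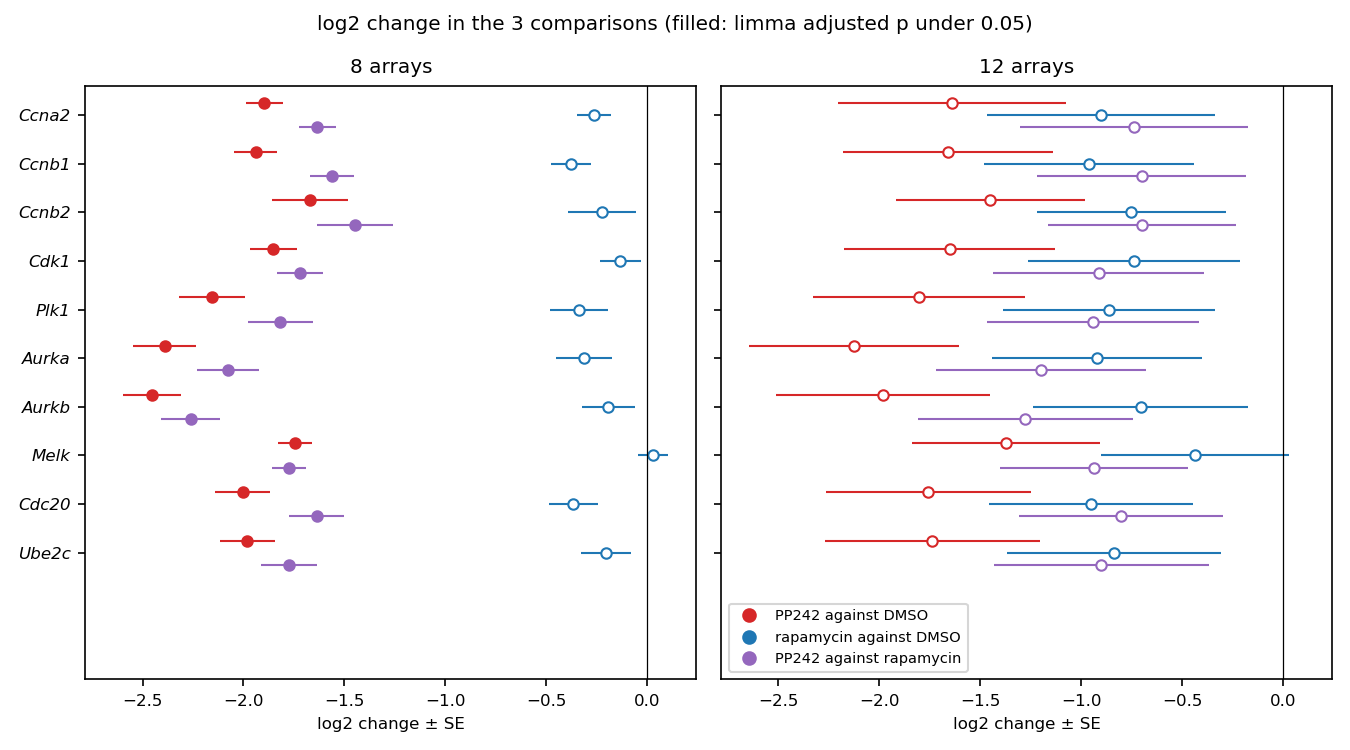
log2 change (horizontal axis, point, with its standard error as a bar) of the 10 genes in the 3 comparisons, fitted on the 8 wide-range arrays (left) and on all 12 arrays (right); filled points have a limma adjusted p under 0.05. PP242 changes on the left run from -2.45 to -1.45 and are all filled, and no point is filled on the right, where standard errors are 0.47 to 0.56 against 0.08 to 0.19.

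Rapamycin was compared with DMSO to ask which mRNAs change with rapamycin. None of the 10 genes passed on the 8 wide-range arrays, where limma called 0.00508% of all genes lower. Their log2 changes lay between -0.38 (Ccnb1) and 0.03 (Melk), with limma adjusted p of 0.209 to 0.930 (n = 3 and 3). The median was -0.24 and that of all genes tested was -0.02. The 95% intervals of the 10 genes on these arrays together ran from -0.69 to 0.21, so falls of the size measured with PP242 lay outside them. On 12 arrays, which include rapamycin 3, the intervals together ran from -2.15 to 0.59. That wider span takes in the changes measured with PP242 on 12 arrays. Neither span shows the genes to be unaffected by rapamycin.

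Ccnb1, Cdc20 and Ccna2 had the lowest unadjusted limma p-values (0.00703, 0.0218 and 0.0171, 3 of 10 under 0.05, against 6.42% of all genes in this direction). Ccnb1 was at 1.83, 1.94 and 2.11 on rapamycin arrays 1, 2 and 4, below the wide-range DMSO values of 2.29 to 2.38. Its difference was -0.38 ± 0.10, or 1.30-fold. Cdc20 was at 5.32, 5.44 and 5.73 with rapamycin, a difference of -0.37 ± 0.12, and Ccna2 was at 4.38, 4.29 and 4.45, a difference of -0.26 ± 0.08. For these 3 genes the rapamycin and DMSO values did not overlap on the wide-range arrays, which held in this direction for 10.3% of all genes. The other 7 overlapped.

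The other 7 genes showed the following on rapamycin 1, 2 and 4. Aurka (4.11, 4.12 and 4.44) and Plk1 (4.30, 4.21 and 4.68) had differences of -0.32 ± 0.14 and -0.34 ± 0.15. Ccnb2 (2.69, 2.75 and 3.29) differed by -0.22 ± 0.17, and its value on rapamycin 4 lay above every DMSO value. Differences for Ube2c (4.41, 4.61 and 4.82), Aurkb (1.48, 1.42 and 1.80) and Cdk1 (3.69, 3.61 and 3.81) were -0.21 ± 0.12, -0.19 ± 0.13 and -0.13 ± 0.10. Melk (2.59, 2.61 and 2.67) differed by 0.03 ± 0.08, which is less than its SE. Rapamycin 4 was the highest of the wide-range rapamycin arrays for all 10 genes, and within slide 3, which held it, the 10-gene median of rapamycin 4 minus DMSO 3 was -0.08 with 8 of 10 negative. Within slide 1 the median of rapamycin 1 minus its 2 DMSO arrays was -0.39 with 10 of 10 negative.

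Rapamycin 3 was far below the other rapamycin arrays for all 10 genes, and below every PP242 array too. Its levels were 1.65 for Ccna2, -0.40 for Ccnb1, 0.85 for Ccnb2, 1.20 for Cdk1, 2.06 for Plk1, 1.89 for Aurka, -0.81 for Aurkb, 0.72 for Melk, 3.16 for Cdc20 and 2.18 for Ube2c. With it, on 12 arrays, the 10 differences from DMSO were -0.96 to -0.44 with a median of -0.85, and none passed (limma adjusted p = 0.832 for each of the 10, 0% of all genes called). The 75th percentile used for scaling was 7661 on this array and 959 to 1797 on the others. The processed intensities of the 10 genes before scaling were 0.82 to 1.44 times their mean on the other rapamycin arrays (median 1.05), none lay below the lowest of those arrays, and all 10 lay above the wide-range PP242 arrays. For Cdc20 the intensity was 68689 on rapamycin 3 and 52629 to 87871 on the other rapamycin arrays. The part that the scaling plays in the low levels of rapamycin 3 was not tested.

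**Figure D4:**
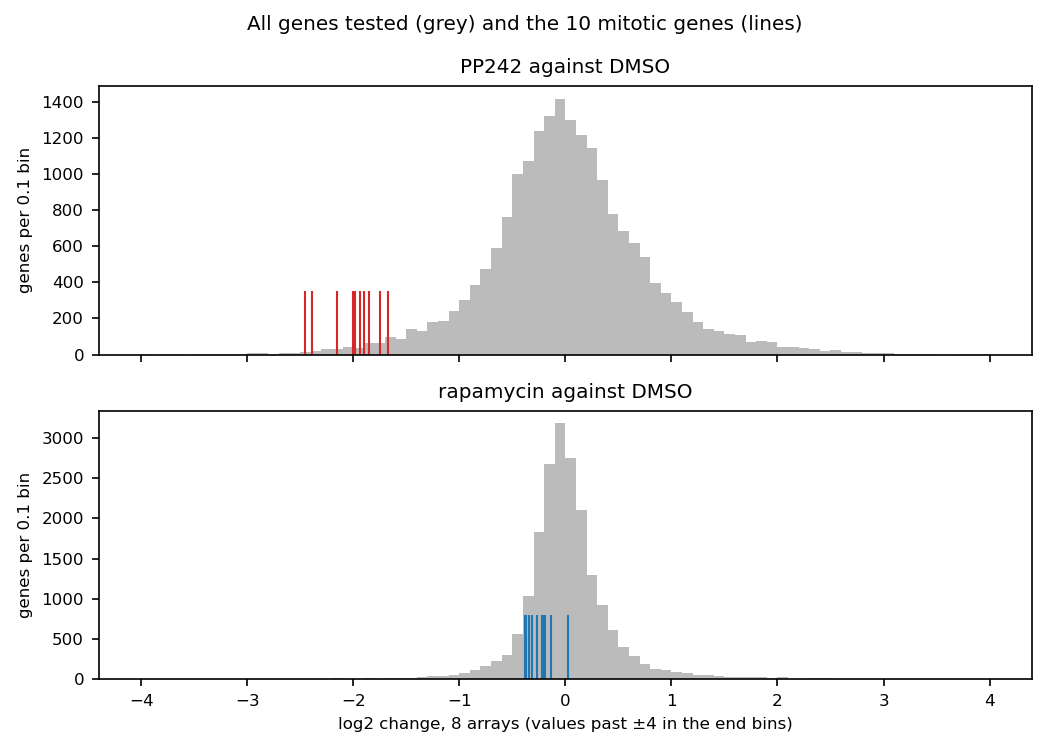
Number of genes in bins of 0.1 log2 units (grey) over the log2 change on the 8 wide-range arrays, with the 10 mitotic genes as coloured lines of arbitrary height, for PP242 against DMSO (top) and rapamycin against DMSO (bottom). The 10 lines lie between -2.45 and -1.67 in the lower tail with PP242 and between -0.38 and 0.03 within the bulk of genes with rapamycin.

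PP242 was also compared directly with rapamycin. The compounds were given at different doses, so this sets 2 treatments against each other and not 2 structures. On the wide-range arrays all 10 genes were lower with PP242, by 2.73-fold for Ccnb2 to 4.80-fold for Aurkb (limma adjusted p = 0.00103 to 0.00579, n = 2 and 3), where 7.08% of all genes were called lower. The log2 differences included -2.26 ± 0.15 for Aurkb, -2.08 ± 0.15 for Aurka, -1.77 ± 0.08 for Melk and -1.45 ± 0.19 for Ccnb2, and the median was -1.75 against 0.02 for all genes. The call for Ccnb2 was lost without PP242 2 or PP242 3 (limma adjusted p = 0.0597 and 0.0611) and with slide as a block (-1.36, limma adjusted p = 0.0558). The comparisons with DMSO and with rapamycin share the PP242 arrays.

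On 12 arrays the log2 differences between PP242 and rapamycin were -1.28 (Aurkb) to -0.70 (Ccnb2), and none passed (limma adjusted p rounded to 1.0 for each, 0% of all genes called). Aurkb and Aurka had unadjusted limma p-values of 0.0363 and 0.0425, where 1.06% of all genes were lower with an unadjusted p under 0.05. Leaving out rapamycin 3 alone gave differences of -1.87 to -1.21 and calls for all 10 genes (limma adjusted p = 0.00439 to 0.0236, 3.91% of all genes called lower). Within slides the 10 genes were lower with PP242 than with rapamycin in each, with medians of -1.67, -1.17 and -0.56 on slides 1, 2 and 3, the last with rapamycin 3 in it.

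Other genes of mitotic entry and exit were taken from 6 lists, described here for PP242 against DMSO on the wide-range arrays, on which 12.9% of all genes were called lower and 12.9% higher. On 12 arrays 0 genes of any of the 6 lists passed, with 8 of 12, 3 of 3, 7 of 10, 1 of 14, 7 of 10 and 5 of 11 lower at an unadjusted limma p under 0.05, in the order in which the lists follow, against 3.91% of all genes. Aurkc, counted there among the other mitotic kinases, was well above background only on the 4 arrays with raised dim probes. It was not tested on the wide-range arrays. Among partners and regulators of cyclins and Cdk1, 10 of 12 measured genes fell and the median log2 change was -1.54. Ccnf, a cyclin that is part of a ubiquitin ligase, fell by 2.13 ± 0.14, and Cdc25c, a phosphatase that activates Cdk1, and Bora, a cofactor of Aurora A, each fell by 1.83. Wee1, the kinase that holds Cdk1 inactive, also fell, by 0.95, but its call was lost without PP242 2 or PP242 3 (limma adjusted p = 0.057 and 0.0589) or with slide as a block (0.0582), and its change was -0.38 in the deposited log2 table. Arpp19, an inhibitor of the phosphatase that opposes Cdk1, had a log2 change of -0.38 ± 0.15 and did not pass (limma adjusted p = 0.115).

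All 3 measured partners of the Aurora kinases fell, with a median of -1.70. Birc5 (survivin) and Cdca8 (borealin), which sit with Aurkb in the chromosomal passenger complex, fell by 1.84 ± 0.16 and 1.70 ± 0.17, and Tpx2, which activates Aurka on the spindle, by 1.29 ± 0.13. Birc5 levels were 5.93, 5.89, 5.99 and 5.65 with DMSO and 4.12, 4.09, 3.93 and 4.99 with PP242. Incenp, a further partner, had no probe named for it. Of the other mitotic kinases, 8 of 9 fell (median -1.47). Bub1 of the spindle checkpoint fell by 1.94 ± 0.14, Haspin, which phosphorylates histone H3, by 1.87 ± 0.14, and Pbk by 1.68 ± 0.10. Plk2, a polo-like kinase that is not tied to mitosis, had a log2 change of 0.36 ± 0.12 and did not pass (limma adjusted p = 0.0698).

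Of 14 core subunits of the APC/C 4 fell and 1 rose, with a median of -0.13. Anapc15, which promotes release of the checkpoint complex, fell by 0.96 ± 0.09, the scaffold Anapc1 by 0.88 ± 0.09 and the RING subunit Anapc11 by 0.49 ± 0.11, and Cdc23 fell by 0.39. Anapc16 rose by 0.47. Without DMSO 1, DMSO 3, PP242 2 or PP242 3, each left out alone, the calls of Anapc11, Cdc23 and Anapc16 were all lost (limma adjusted p = 0.0534 to 0.22), and that of Cdc23 also without DMSO 4, rapamycin 1 or rapamycin 2 (0.077, 0.0799 and 0.0629). With slide as a block the 3 calls were lost too (limma adjusted p = 0.147, 0.236 and 0.132 in the same order). Cdc26 had a log2 change of -0.61 ± 0.19 and did not pass (limma adjusted p = 0.0599). Of 10 activators, E2 enzymes, inhibitors and substrates of the APC/C 8 fell (median -1.48), among them the checkpoint kinase Bub1b by 2.16 ± 0.23, separase (Espl1) by 1.67 ± 0.11 and the inhibitor Fbxo5 by 1.65 ± 0.21. Securin (Pttg1) fell by 1.48 and the E2 enzyme Ube2s, which extends the chains begun by Ube2c, by 1.20. Fzr1, the activator that replaces Cdc20 at the end of mitosis, fell by 0.98, a call lost without PP242 2 or PP242 3 (limma adjusted p = 0.0785 and 0.0657) or with slide as a block (0.0983). Mad2l2 had a log2 change of 0.27 ± 0.17 and did not pass (limma adjusted p = 0.297).

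Genes that act on transcription of such genes were mixed, with 5 of 11 lower and a median of -0.64. Mybl2 (B-Myb) fell by 1.88 ± 0.11 and Foxm1 by 1.57 ± 0.10. The spots of Mybl2 and Fbxo5 on rapamycin 4 were marked as outliers, so their fits lack that array. Foxm1 levels were 2.54, 2.68, 2.53 and 2.57 with DMSO and 1.07, 0.93, 1.04 and 2.04 with PP242. The groups thus did not overlap, as for 13.8% of all genes in this direction on 12 arrays. Of the MuvB core, Lin9 fell by 0.96 ± 0.12 and Lin54, which contacts the CHR, by 0.94, whereas Lin37, Lin52 and Rbbp4 had log2 changes of 0.33, -0.0031 and -0.19 and did not pass. The call of Lin54 was lost without DMSO 1, DMSO 3, PP242 2 or PP242 3 (limma adjusted p = 0.0615 to 0.132) and with slide as a block (0.0975), and Lin37 passed as higher without DMSO 4 (limma adjusted p = 0.0181). Of the NF-Y subunits Nfyc fell by 0.67, a call lost without PP242 2 or PP242 3 (limma adjusted p = 0.0611 and 0.052) or with slide as a block (0.0718), and Nfya and Nfyb had changes of -0.18 and -0.33 and did not pass. Nfyb passed as lower without rapamycin 4 (limma adjusted p = 0.0451). E2f4, a DREAM subunit, had a change of -0.64 ± 0.32 and did not pass (limma adjusted p = 0.199).

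With rapamycin 0 genes of the 6 lists passed on the wide-range arrays, and list medians were -0.15 to -0.03 against -0.02 for all genes. At an unadjusted limma p under 0.05, 2 of 12 partners and regulators of cyclins, 2 of 14 core subunits and 2 of 11 genes of transcription were lower, and 0 of the 3 other lists, against 6.42% of all genes. On these arrays PP242 against rapamycin gave 10 of 12, 3 of 3, 8 of 9, 3 of 14, 8 of 10 and 5 of 11 genes lower in the same order of lists, and 1 core subunit higher, with 7.08% of all genes called lower and 6.8% higher.

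**Figure D5:**
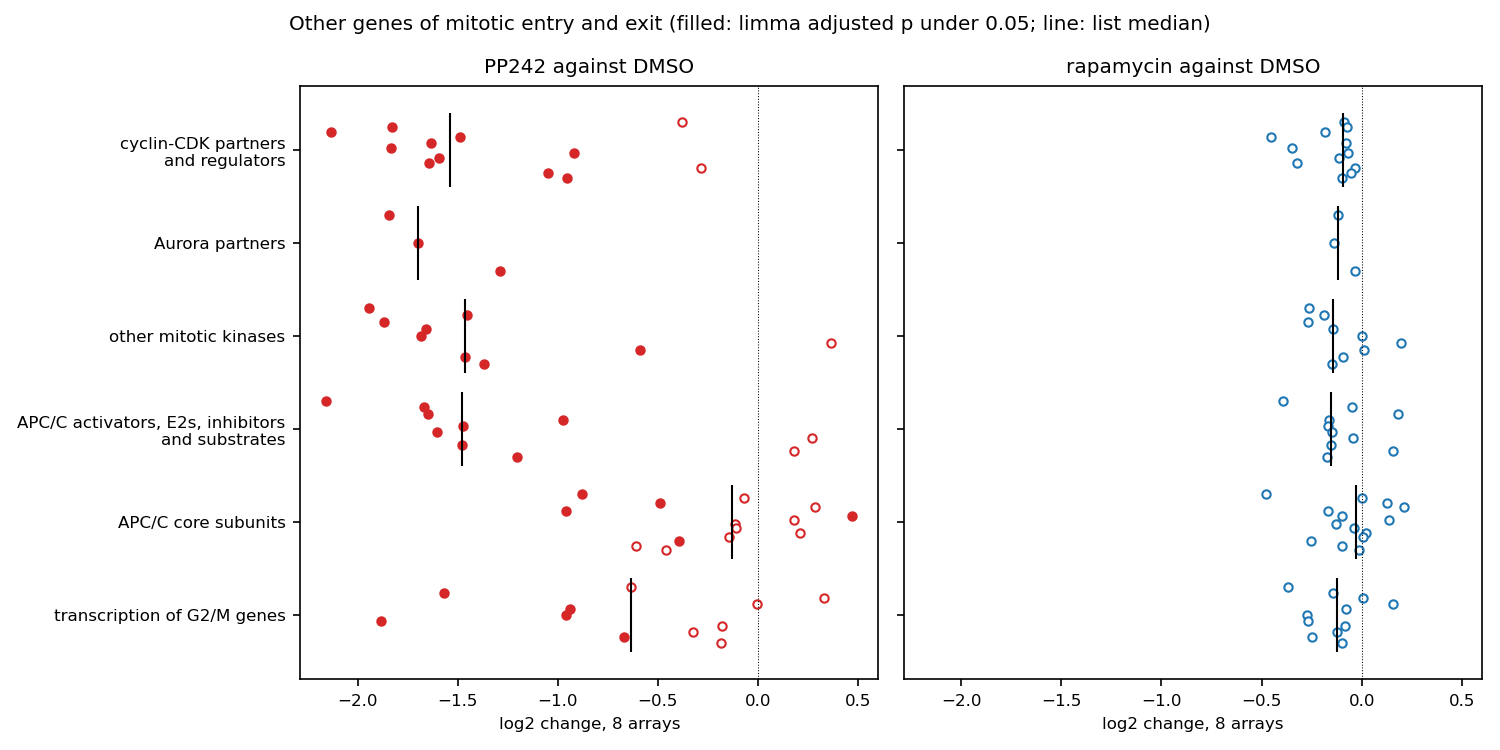
log2 change on the 8 wide-range arrays (horizontal axis) of each measured gene in 6 lists of mitotic entry and exit, for PP242 against DMSO (left) and rapamycin against DMSO (right); filled points passed at a limma adjusted p under 0.05 and black lines are list medians. With PP242 the core subunits have a median of -0.13 and the partners of cyclins one of -1.54, and no point is filled with rapamycin.

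The 10 genes followed each other closely from array to array. Over the 8 wide-range arrays the 45 pairs of genes had Pearson correlations of 0.965 (Ccnb2 with Melk) to 0.997 (Plk1 with Aurka), with a median of 0.990. These arrays share the split between the 2 PP242 arrays and the other 6. Over the 6 DMSO and rapamycin arrays alone the 45 correlations ran from -0.25 to 0.97 with a median of 0.79. Among 12328 genes, the profiles most like the mean profile of the 10 genes over the 8 arrays were those of Tacc3 (r = 0.999), Topbp1, Kpna2, Gmnn, Trip13 and Depdc1b (r = 0.998 for the lowest). Over 12 arrays their correlations were 0.888 (Tacc3) to 0.997 (Trip13). With PP242 against DMSO they fell by 1.48 (Gmnn) to 2.13 (Depdc1b) on the log2 scale. These genes were picked for their likeness, so their changes are a description.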

How the data were processed

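The authors deposited scanner output of 12 one-colour arrays, linear intensity values for 45018 spots each, from which Agilent Feature Extraction had removed background and spatial trends per the file headers, with no scaling across arrays. Its version is 10.5.1.1 in the headers and 10.1 in the submitters' processing notes. The authors also deposited log2 values of the same arrays, which served as an alternative (how they were normalised is not stated in the labels).

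Control spots (1639 per array) and spots marked as outliers (1.52% of spots) were left out, and spots of a probe were averaged. Genes were named through RefSeq accessions, for 24844 of 41174 probes; the other 16330 have no name here. Probes that stood well above background on 4 or more of 12 arrays, or 2 or more of 8, were tested with limma 3.58.1 (lmFit and eBayes, 1 model for the 3 groups, two-sided, Benjamini-Hochberg over all genes, threshold 0.05) in R 4.3.3, with the data.table package (version 1.17.8); figures were drawn with matplotlib. The limma script was tested on simulated data. No spot of the 12 arrays was saturated. A list of blood cell markers is not reported here.

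All 10 genes are named. Each list names its 3 largest changes that passed and the largest that did not; Wee1, Cdc23, Anapc16, Pttg1, Ube2s, Fzr1, Lin37, Lin52, Lin54, Rbbp4 and the NF-Y subunits were named after their values were seen. The genes, lists, tests and the 8-array subset were chosen with earlier results of these data known. Alternatives were other normalisations, filters, probe summaries, blocks, weights and leaving out each array.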

Additional observations from a re-analysis of the deposited data

Results flagged for a closer look

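In groups of 4 arrays, a value was singled out when its distance to the nearest other value exceeded 0.829 of the group's range (Dixon's limit). Of 30 groups (10 genes in 3 treatments) 16 had such a value, all on rapamycin 3 or PP242 4. Chance gives about 1 in 20 groups, and the genes on an array are not independent.

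Rapamycin 3 stood apart for 8 genes, each time as the lowest of the rapamycin arrays. Its levels were 1.65 for Ccna2 (the others 4.29 to 4.45), -0.40 for Ccnb1 (1.83 to 2.11), 1.20 for Cdk1 (3.61 to 3.81), 1.89 for Aurka (4.11 to 4.44), -0.81 for Aurkb (1.42 to 1.80), 0.72 for Melk (2.59 to 2.67), 3.16 for Cdc20 (5.32 to 5.73) and 2.18 for Ube2c (4.41 to 4.82).

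PP242 4 stood apart for 8 genes as the highest of the PP242 arrays. Its levels were 3.52 for Ccna2 (the others 2.71 to 2.82), 1.44 for Ccnb1 (0.35 to 0.45), 2.31 for Ccnb2 (1.46 to 1.55), 2.64 for Cdk1 (1.96 to 2.04), 3.66 for Plk1 (2.53 to 2.67), 3.20 for Aurka (2.14 to 2.26), 2.13 for Melk (0.82 to 1.01) and 3.84 for Ube2c (2.74 to 2.93). Both arrays are among the 4 with raised dim probes, with 97.9% and 96.2% of probes well above background. The part of this in the values was not tested.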

How the results depend on the processing

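On the 8 wide-range arrays all 10 genes passed for PP242 against DMSO under every alternative run, and 0 of 10 for rapamycin against DMSO. The median change for PP242 against DMSO was -1.81 after quantile normalisation, -1.78 with normexp and quantile normalisation and -1.75 in the deposited log2 table, which gave -1.59 for PP242 against rapamycin. Without each array in turn the medians were -1.97 to -1.91, -0.36 to -0.20 and -1.77 to -1.67 for PP242 against DMSO, rapamycin against DMSO and PP242 against rapamycin, with 10, 0 and 9 to 10 genes passing. On 12 arrays the corresponding medians were -1.94 to -1.61, -1.13 to -0.23 and -1.46 to -0.64, with 0 to 10, 0 and 0 to 10 genes passing, the 10 in both cases without rapamycin 3. For PP242 against DMSO on 12 arrays the median was -2.57 with median centring, which moved the median of all genes from 0.38 to -0.46 (quantile normalisation 0.02). In this comparison 1 gene passed with normexp and quantile normalisation (87 of 25581 genes called lower) and 1 with a filter on every array (154 of 15933). With only the 2 groups 10 passed (1684 of 25581), and with array weights 10. Array weights gave 7 genes for rapamycin against DMSO and 10 for PP242 against rapamycin, and called 5064, 1934 and 4080 of 25581 genes lower in the 3 comparisons in the order above. The all-gene calls on 12 arrays for PP242 against DMSO were 15 lower and 84 higher, and 14 lower and 22 higher after quantile normalisation; the cause was not tested.

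Whether replicate numbers pair the samples could not be decided. Over the 12 arrays, same-numbered arrays had correlations of deviations from -0.90 to 0.79 (4 of 12 pairs over 0.1). Of the 12 arrays, 1 correlated best with its own number. These correlations were all positive among the wide-range arrays and among the 4 with raised dim probes, and all negative between these sets. Their sign thus followed this split of the arrays, so the check cannot show or exclude pairing. The part that the raised dim probes play in it was not tested. With the number as a replicate block, 10, 0 and 8 genes passed on 8 arrays in the order above (medians -1.93, -0.23 and -1.72). Of all 19669 genes, 1800, 0 and 534 were called lower. Ccnb2 (-1.35, limma adjusted p = 0.0538) and Plk1 (-1.76, limma adjusted p = 0.0507) were missing for PP242 against rapamycin. On 12 arrays 0 of the 10 genes, and 0 of all genes, passed with this block.

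Signs turned only for values that did not pass. Melk for rapamycin against DMSO was 0.017 with array weights on 12 arrays, -0.61 to 0.040 without each array in turn (0.040 without rapamycin 3), and -0.069 with median centring on 8 arrays. On 12 arrays, for PP242 against DMSO, Plk2 was -0.46 and Mad2l2 -0.86 with median centring, and Mad2l2 was -0.0093 without DMSO 2, -0.054 without DMSO 4, -0.0082 without PP242 1, -0.072 without PP242 2 and -0.084 without PP242 3, in a range of -0.084 to 0.22 over the arrays left out. Of the list genes, only those named are described under the alternatives. Among these on 8 arrays, with slide as a block Fbxo5, Anapc11, Wee1, Fzr1, Lin54, Nfyc, Cdc23 and Anapc16 lost their calls (limma adjusted p = 0.0582 to 0.236). Anapc11 lost its call in 8 alternatives (0.0553 to 0.159). Cdc23 also lost it with quantile normalisation, no background subtraction, normexp and quantile normalisation, the deposited log2 table, no filter, the mean of all probes, only the 2 groups and the replicate block (0.0656 to 0.14), Anapc16 with median centring, only the 2 groups and the replicate block (0.053 to 0.0675), Lin54 with median centring (0.0515) and Nfyc with the replicate block (0.0567). With 2 wide-range PP242 arrays, leaving out either leaves 1, assumed to vary like the other groups.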
